A study of Bos taurus with 16 samples.

Results

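The genes that build the neuromuscular junction were examined in muscle of newborn Hanwoo calves. The set held 10 of the 34109 genes in the deposited tables. It was defined by gene symbol through the NCBI gene IDs and not by a cut on expression values. The choice was made with earlier results of these data known. The members were the acetylcholine receptor subunits CHRNA1, CHRNB1, CHRND, CHRNE and CHRNG, and the clustering genes AGRN, LRP4, MUSK, DOK7 and RAPSN. All 10 IDs were found and every member had reads in all 16 libraries.

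RNA was sequenced from round and sirloin muscle collected right after birth from 8 calves of Hanwoo cows. The 4 control cows were assigned to standard nutrition, given as 100%, throughout pregnancy. The 4 treated cows were assigned to overnutrition, given as 150%, from mid pregnancy until calving. Each group thus held 4 libraries, and the methods give male calves. The labels name no calf, so round and sirloin libraries of a diet with the same replicate number were taken as the same calf. The comparisons ask whether the diet of the cow altered these genes in each muscle and whether the muscles differed.

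At the neuromuscular junction the motor nerve releases acetylcholine onto a muscle fibre, and a pentameric receptor packed under the nerve terminal opens in response. The receptor of fetal muscle carries the gamma subunit, encoded by CHRNG, and that of mature muscle carries the epsilon subunit, encoded by CHRNE, in its place. Nerve-derived agrin binds LRP4, which activates the kinase MuSK together with DOK7, and the scaffold rapsyn then gathers the receptors. The ratio of CHRNG to CHRNE is therefore used as a measure of how far the exchange of subunits has gone.

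The depth of a round library lay between 44473011 and 72446933 counts and that of a sirloin library between 44863173 and 72165291. Skeletal muscle markers summed to between 64255 and 119327 TPM, a unit that scales each library to the same total and corrects for gene length. Among the motor neuron markers, SLC18A3, CHAT and SLC5A7 were at 0 in all 16 libraries, and the 5 markers together reached at most 0.0646 TPM. Schwann cell markers summed to 73.4 to 195 TPM, with overlapping ranges in the 4 groups. One library stood apart: in sirloin of treated replicate 4 the adipocyte markers ADIPOQ, PLIN1 and LEP summed to 852 TPM, against at most 2.54 TPM in any other library (edgeR adjusted p = 0.876 for the diet in sirloin for each of these 3 genes). In bulk tissue, fewer cells of a type and less RNA per cell cannot be told apart.

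The levels of the 10 genes covered a wide range. CHRNA1, the alpha subunit that binds acetylcholine, had the highest median, 128 TPM over the 16 libraries, and ranked first among the members in 15 of them. RAPSN followed with 58.7 TPM and CHRNB1, the beta subunit, with 34.1 TPM. MUSK was the lowest member in all 16 libraries, with a median of 0.502 TPM and 69 to 527 counts.

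Several neighbours in this order could not be separated. DOK7 (median 20.9 TPM) exceeded LRP4 (19.6 TPM) in 8 of 16 libraries. CHRNE (12.0 TPM) exceeded CHRND (10.2 TPM) in 7 of 16. AGRN (3.80 TPM) exceeded CHRNG (3.77 TPM) in 10 of 16, with a mean log2 difference of 0.22 ± 1.03 (SD, n = 16). CHRNG lay above MUSK in every library. The plot of TPM by gene shows these levels.

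**Figure D1:**
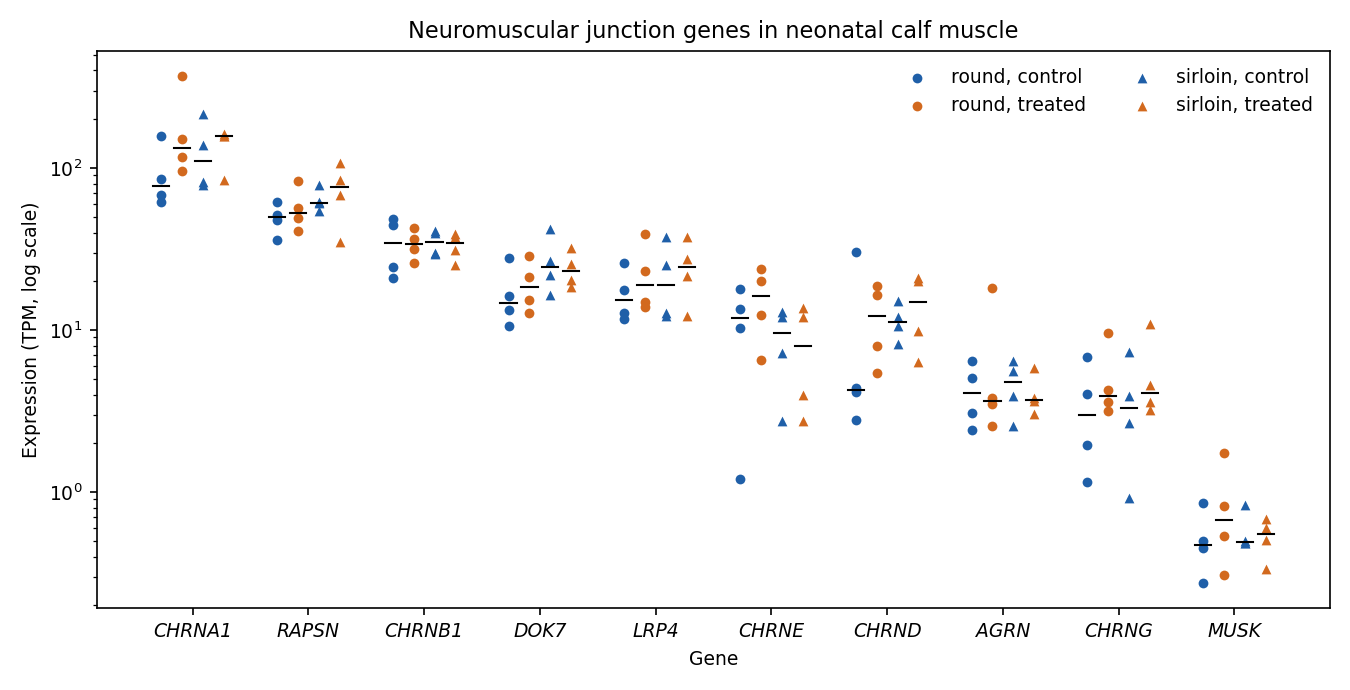
Expression of the 10 neuromuscular junction genes in TPM on a log scale, ordered by their median over 16 libraries. Each point is a library (circles round, triangles sirloin, blue control, orange treated; n = 4 per group) and each bar is a group median; CHRNE in round muscle of control calves spans 1.20 to 18.0 TPM, while RAPSN stays within 34.9 to 107 TPM in all groups.

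The receptor subunits differed in their level per length. CHRNA1 exceeded CHRNB1 in all 16 libraries, and their TPM ratio ran from 1.93 to 14.3 with a median of 3.40. CHRND, the delta subunit, lay below CHRNB1 in all 16. The sum of CHRNG and CHRNE was 5.24 to 33.4 TPM (median 14.6) and was below CHRNB1 in 15 of 16 libraries. CHRNB1 overlaps the gene ZBTB4, which had 802 to 3011 counts, and the strand setting of the counting is not given in the sources used here, so reads from the shared stretch may be assigned to either gene.

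The exchange genes were also the most variable members. The standard deviation within groups, on log2 CPM scaled by TMM factors (counts scaled by library size and composition), was 1.23 for CHRNE, 1.05 for CHRNG and 1.03 for CHRND. Among 11899 genes with a mean of at least 1 TPM these stood at percentiles 96.6, 94.5 and 94.1, and the median gene had 0.429. AGRN (0.77), LRP4 (0.70), CHRNA1 (0.67) and DOK7 (0.53) were intermediate. RAPSN (0.44) and CHRNB1 (0.40) varied about as much as the median gene, and MUSK, which lies under that TPM minimum, had 0.65.

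CHRNG was found in every calf at birth. In round muscle it had 6.80, 1.15, 1.94 and 4.04 TPM in control replicates 1 to 4. In treated replicates 1 to 4 it had 4.26, 3.59, 3.16 and 9.65 TPM. The lowest value was that of control replicate 2 and the highest that of treated replicate 4, and the groups overlapped. In sirloin the control calves had 7.34, 0.923, 2.68 and 3.92 TPM, and the treated calves had 3.21, 4.57, 3.62 and 10.9 TPM. The same calves held the lowest and the highest value as in round muscle. Libraries contained 70 to 718 counts of CHRNG.

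CHRNE differed more between calves than CHRNG in round muscle, with a 19.8-fold range in TPM against 8.35-fold. In sirloin the order was reversed, with 4.98-fold for CHRNE and 11.8-fold for CHRNG. Round muscle of control replicates 1 to 4 gave 13.5, 18.0, 10.2 and 1.20 TPM, and that of treated replicates 1 to 4 gave 20.1, 6.53, 12.4 and 23.7 TPM. Sirloin of the control calves gave 12.0, 13.0, 7.17 and 2.73 TPM, and that of the treated calves 12.0, 2.73, 3.97 and 13.6 TPM. Control replicate 4 was the lowest in round muscle, while treated replicate 2 and control replicate 4 were the lowest in sirloin. CHRNE had 65 to 1272 counts per library. It overlaps C19H17orf107, which had at most 8 counts.

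The ratio of CHRNG to CHRNE spread over a 52.3-fold range among the calves in round muscle and a 23.5-fold range in sirloin. In round muscle the control calves had ratios of 0.504, 0.0642, 0.190 and 3.36, and the treated calves 0.212, 0.550, 0.254 and 0.406. All 4 treated values thus lay between those of control replicate 3 and control replicate 4. In sirloin the control calves had 0.611, 0.0710, 0.373 and 1.43, and the treated calves 0.267, 1.67, 0.913 and 0.801. CHRNG exceeded CHRNE in 3 of 16 libraries, namely both muscles of control replicate 4 and sirloin of treated replicate 2.

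Counting error was small beside this spread. In round muscle of control replicate 4, CHRNG supplied 217 of the 282 counts of both genes, a share of 77.0% (95% exact binomial confidence interval 71.6% to 81.7%). In round muscle of control replicate 2 it supplied 86 of 1358 counts, a share of 6.33% (5.10% to 7.76%). These intervals cover counting error only.

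**Figure D2:**
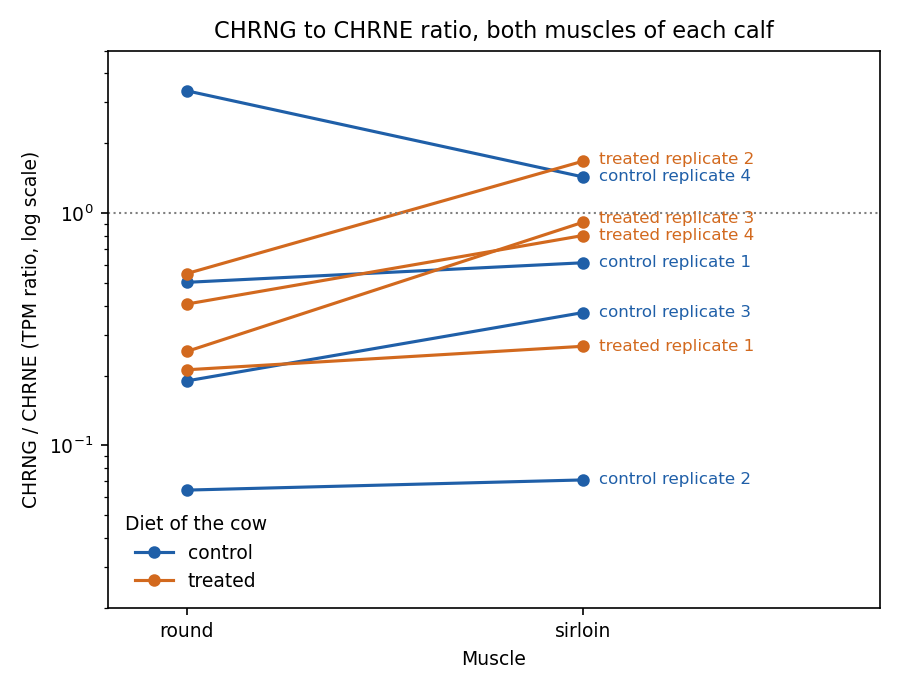
Ratio of CHRNG to CHRNE (TPM, log scale) in round and sirloin muscle, with a line for each of the 8 calves (blue control, orange treated) and a dotted line where both genes are equal. Control replicate 2 is lowest in both muscles (0.0642 and 0.0710), the ratio is higher in sirloin in 7 of 8 calves, and control replicate 4 runs the other way (3.36 and 1.43).

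No effect of diet on the ratio was detected in either muscle. In round muscle the mean log2 ratio was -1.40 ± 2.42 (SD, n = 4) in control and -1.59 ± 0.63 (n = 4) in treated calves, a difference of -0.20 (two-sided exact permutation p = 0.943, 0.943 after Benjamini-Hochberg adjustment over the 4 tests of the ratio). The sign of that difference rested on single calves, since it was 0.85 without control replicate 4 and 0.02 without treated replicate 1. In sirloin the means were -1.36 ± 1.82 and -0.40 ± 1.10 (SD, n = 4 each). The difference of 0.95 gave an exact permutation p of 0.429 (adjusted 0.588) and shrank to 0.13 without control replicate 2. In round muscle the paper describes its control sample C2 as an apparent outlier by principal components and by correlation between samples. By its number C2 would be control replicate 2. The smallest p that 4 against 4 calves allow is 0.0286.

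The ratio was higher in sirloin than in round muscle of the same calf in 7 of 8 calves. The mean difference was 0.62 on the log2 scale, or 1.53-fold. An exact permutation test of the 8 sirloin against the 8 round libraries, which does not use the pairing by calf, gave p = 0.441 (adjusted 0.588). Sign flips within calves, which do use it, gave an exact p of 0.102. The within-calf differences had an SD of 0.97. Within calves, sirloin minus round was 1.19 ± 0.68 (SD, n = 4; 4 of 4 higher) in treated and 0.04 ± 0.92 (n = 4; 3 of 4 higher) in control calves. These differed by 1.15 between the diets, with an exact permutation p of 0.0571 and an adjusted p of 0.229.

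The log2 ratio in round muscle was also compared with that in sirloin over the 8 calves (Pearson's r = 0.813, exact permutation p = 0.0199; Spearman's rho = 0.857, p = 0.0107). Over the 25 relations of this family neither passed adjustment (adjusted p = 0.197 and 0.181). Without control replicates 2 and 4, the calves farthest from the median, r was 0.739.

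The same relation was then computed for each of the 10 members, a family chosen after the data were seen. CHRNG in round muscle tracked CHRNG in sirloin with r = 0.951 (exact permutation p = 0.00104, adjusted 0.0104) and rho = 0.881 (adjusted p = 0.0513). Without control replicate 2 and treated replicate 4 its r was 0.814. DOK7 gave r = 0.855 and CHRNE r = 0.789 (adjusted p = 0.0275 for both by permutation), which became 0.609 and 0.631 without the 2 outermost calves. These 3 members passed adjustment for r and none of the 10 did for rho. For MUSK the relation had a negative sign (r = -0.442, exact permutation p = 0.257; rho = -0.119). That sign rested on single calves, since r was 0.454 without treated replicates 1 and 3. The relations were not computed within each diet, which held 4 calves.

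**Figure D3:**
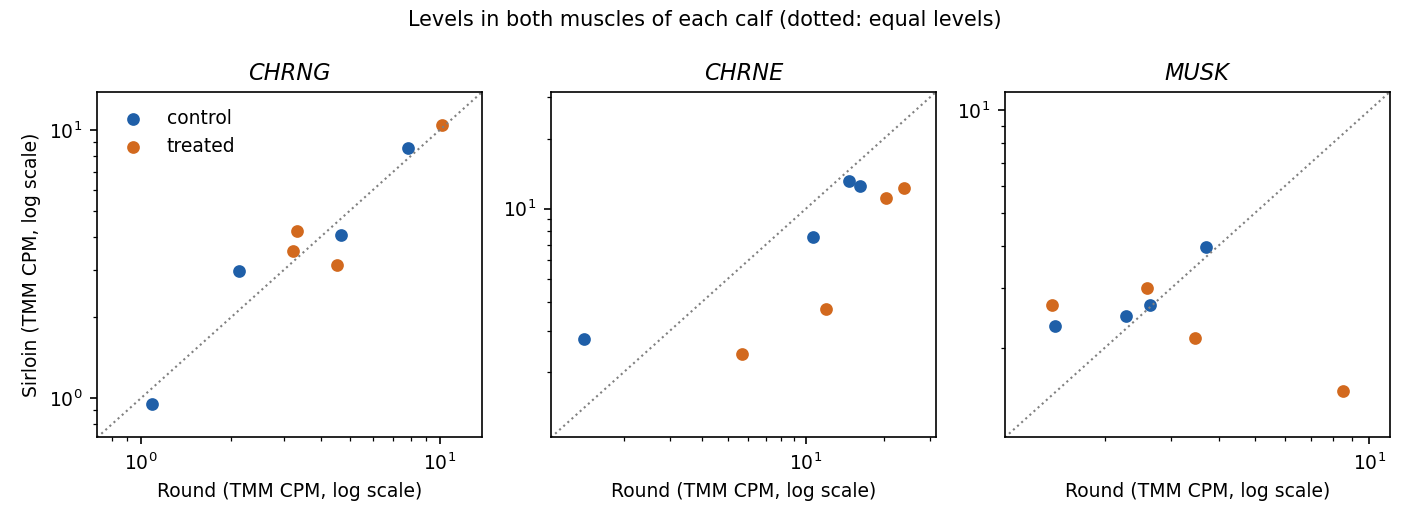
Levels of CHRNG, CHRNE and MUSK in round (horizontal) and sirloin (vertical) muscle of each calf, in TMM-scaled CPM on log axes, with a dotted line of equal levels (blue control, orange treated; 8 calves). CHRNG points lie along the line (r = 0.951), CHRNE points lie below it in 7 of 8 calves, and MUSK in treated replicate 1 is far higher in round muscle (8.52) than in sirloin (1.49).

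No relation between CHRNG and CHRNE across calves was detected. On log2 CPM their r was 0.06 in round muscle (exact permutation p = 0.875) and 0.01 in sirloin (p = 0.975). Of the 25 relations computed, 5 had a p below 0.05 and 0 held after adjustment. Besides the ratio between muscles they were CHRNG with LRP4 (r = 0.802, p = 0.0169) and with CHRND (r = 0.731, p = 0.0395) in round muscle, and CHRNG with CHRNA1 in sirloin (r = 0.726, p = 0.0355), each by exact permutation with an adjusted p of 0.197. CHRND and CHRNG are neighbouring genes in the RefSeq annotation of ARS-UCD2.0.

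The remaining one joined the ratio to MYOG, the transcription factor myogenin that drives subunit genes in myotubes. In sirloin, calves with a higher ratio had less MYOG (r = -0.790, exact permutation p = 0.0241, adjusted 0.197; rho = -0.81, adjusted 0.181). Without control replicate 2 and treated replicate 1 the r was -0.546. In round muscle r was -0.659 (exact permutation p = 0.0757). MYOG was highest in control replicate 2, the calf with the lowest ratio, at 63.8 TPM in round and 62.4 TPM in sirloin. The embryonic and perinatal myosins MYH3 and MYH8 gave r between -0.307 and 0.04 with the ratio, with p of at least 0.478 in the exact permutation test.

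By mean absolute difference of centred log2 CPM over the 16 libraries, the genes nearest to CHRNG among 11898 were CITED2 (0.39), MGC157368 (0.41) and UNC5B (0.43). The median gene differed from CHRNG by 0.82. Nearest to CHRNE were ZNF385D (0.53), PTGER4 (0.53) and SCARB1 (0.56), against a median of 1.00.

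In round muscle none of the 10 members passed the test for the diet of the cow. edgeR's quasi-likelihood test with Benjamini-Hochberg adjustment over 21677 genes called 0 of 10 at an adjusted p below 0.05, where it called 4 genes in all (0.0185%). It also gave 0 of 10 at an unadjusted p below 0.05 (956 genes, 4.41%), as did DESeq2 and limma-voom. Treated and control calves overlapped for all 10 members, and 394 genes (1.82%) did not overlap. The fitted log2 fold change was above 0 for 9 of 10 members, with a median of 0.37 against 0.02 over all genes tested. Of these 9, CHRNA1 and CHRNE kept their sign in all 13 alternative fits, and each of the others changed it in at least 1. The members come from the same 8 calves, so their signs are not separate observations.

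Among the subunits, CHRNA1 gave the lowest p in round muscle. It had 158, 85.9, 61.7 and 68.2 TPM in control and 150, 370, 95.8 and 117 TPM in treated replicates 1 to 4. Treated replicate 2 was the highest and control replicate 1 lay among the treated values. Its log2 fold change was 0.82 ± 0.43 (SE, edgeR adjusted p = 0.864). It was 0.30 without treated replicate 2 and was 1.26 without control replicate 1 (edgeR adjusted p = 0.788).

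CHRND was shaped by a single control calf. Its control values in round muscle were 30.5, 4.39, 4.12 and 2.79 TPM, and its treated values 16.4, 7.99, 5.41 and 18.6 TPM. Control replicate 1 thus exceeded all other libraries while the other 3 control calves were below all 4 treated calves. The log2 fold change was 0.08 ± 0.73 (SE, edgeR adjusted p = 0.996) with all calves and 1.66 without control replicate 1 (edgeR adjusted p = 0.788). CHRNE (0.52 ± 0.61), CHRNG (0.44 ± 0.58) and CHRNB1 (-0.09 ± 0.31) had log2 fold changes smaller than their standard errors.

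The clustering genes behaved likewise. Agrin starts clustering in its neural form, which values per gene do not tell apart from its other forms. AGRN had 5.06, 3.09, 2.41 and 6.41 TPM in round muscle of control and 2.55, 18.1, 3.80 and 3.48 TPM in that of treated calves. Its log2 fold change of 0.51 ± 0.55 (SE, edgeR adjusted p = 0.926) became -0.48 without treated replicate 2. That library also held the highest CHRNA1 and the highest MYH7, the slow myosin heavy chain, at 11858 TPM against at most 3911 TPM elsewhere, and the part of fibre type in these values was not tested. AGRN overlaps a long non-coding RNA gene with 29 to 444 counts.

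MUSK had 0.497, 0.858, 0.449 and 0.276 TPM in control and 1.74, 0.818, 0.309 and 0.532 TPM in treated round muscle, with treated replicate 1 the highest. Its log2 fold change was 0.66 ± 0.52 (SE, edgeR adjusted p = 0.874) and was -0.02 without treated replicate 1. MUSK overlaps a long non-coding RNA gene that was not analysed here. LRP4 (0.30 ± 0.39), RAPSN (0.13 ± 0.27) and DOK7 (0.06 ± 0.35) were closer to 0 on the same log2 scale.

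In sirloin no member passed the test for diet either. edgeR called 0 of 10 at an adjusted p below 0.05 (2 of 21776 genes, 0.00918%) and 0 of 10 at an unadjusted p below 0.05 (852 genes, 3.91%). DESeq2 and limma-voom also gave 0 at both thresholds. All 10 members overlapped between the groups (355 genes, 1.63%, did not), and 3 of 10 log2 fold changes were above 0, with a median of -0.17 against 0.03 over all genes tested. These 3, CHRND, CHRNG and RAPSN, each changed sign in at least 1 of 13 alternative fits. The lowest p was that of AGRN, with a log2 fold change of -0.37 ± 0.31 (SE, edgeR adjusted p = 0.906).

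CHRNA1 in sirloin had 217, 78.5, 81.7 and 139 TPM in control and 158, 161, 84.6 and 157 TPM in treated calves. Treated replicate 3 stood below the other 3 treated calves, and the log2 fold change was -0.09 ± 0.36 (SE, edgeR adjusted p = 1.00). CHRND had 12.0, 10.5, 15.1 and 8.18 TPM in control and 21.1, 9.93, 6.37 and 20.0 TPM in treated calves, with a log2 fold change of 0.14 ± 0.38 (SE). CHRNG (0.37 ± 0.60) turned to -0.19 and CHRND to -0.07 without treated replicate 4, the library rich in adipocyte markers. CHRND changed sign in 3 of 13 alternative fits and reached -0.12 with another calf left out. The part of adipocytes in these values was not tested. RAPSN had 54.6, 60.8, 78.6 and 61.7 TPM in control and 68.4, 107, 84.4 and 34.9 TPM in treated calves. DOK7 (-0.32 ± 0.29), CHRNB1 (-0.25 ± 0.22), MUSK (-0.30 ± 0.34) and CHRNE (-0.29 ± 0.58) had negative log2 fold changes that did not pass the test.

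**Figure D4:**
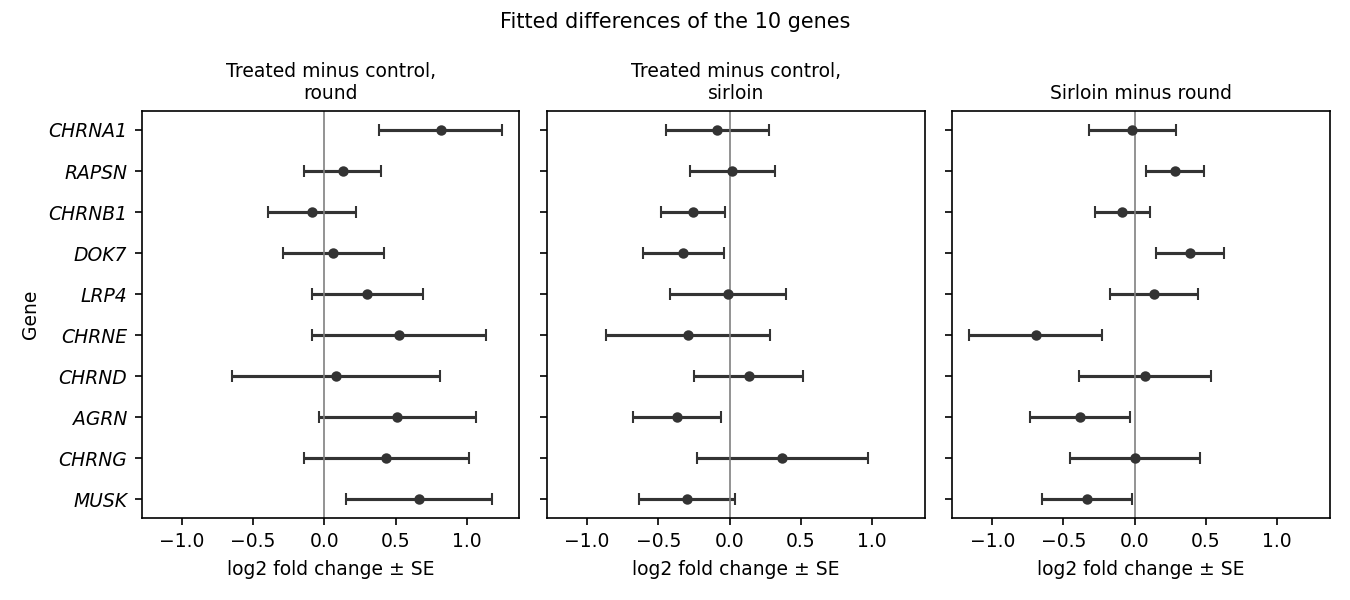
Log2 fold changes of the 10 genes fitted by edgeR, with bars of 1 standard error, for treated minus control in round muscle, treated minus control in sirloin and sirloin minus round (4 libraries per group). In round muscle 9 of 10 points lie right of 0 and in sirloin 3 of 10, and 0 of 10 passed an adjusted p of 0.05 in any panel. Of the 9, only CHRNA1 and CHRNE kept their sign in all alternative fits.

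No member passed the test for a diet effect that differs between the muscles. The interaction test called 0 of 10 members and 0 of 22877 genes (0%) at an adjusted p below 0.05, and 0 of 10 at an unadjusted p below 0.05 (637 genes, 2.78%). MUSK (-0.92 ± 0.63, SE) and CHRNA1 (-0.88 ± 0.61) gave the lowest p, both with an edgeR adjusted p of 1.00. With calf as a block, CHRNE (-1.11 ± 0.34, SE) and CHRNA1 (-0.72 ± 0.32) were below an unadjusted p of 0.05 (865 genes, 3.78%). Both had an edgeR adjusted p of 1.00 in that fit, where 1 gene (0.00437%) passed adjustment.

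Between the muscles, DOK7 and CHRNE differed in the same direction in nearly every calf. DOK7, the adaptor that MuSK needs for its activity, was higher in sirloin in all 8 calves, as were 307 of 22877 genes (1.34%). It averaged 17.0 ± 7.52 and 19.5 ± 7.14 TPM (SD, n = 4) in round muscle of control and treated calves, and 26.8 ± 10.9 and 24.1 ± 6.11 TPM in sirloin. CHRNE was lower in sirloin in 7 of 8 calves, with control replicate 4 the exception. The 4 smooth muscle markers had a median log2 difference of -0.92 in the same comparison, with 3 of 4 lower in sirloin at an unadjusted p below 0.05 and 0 past adjustment by edgeR. Their sums in sirloin were 25.5 to 71.2 TPM in control and 35.0 to 75.8 TPM in treated calves, and their part in the values of DOK7 and CHRNE was not tested.

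Neither passed adjustment. Sirloin minus round was 0.39 ± 0.24 for DOK7 (log2, SE, edgeR adjusted p = 0.885) and -0.69 ± 0.47 for CHRNE (edgeR adjusted p = 0.921). At an adjusted p below 0.05 edgeR called 0 of 10 members and 14 genes (0.0612%), and at an unadjusted p below 0.05 it gave 0 of 10 (1447 genes, 6.33%). With calf as a block, the log2 differences were 0.42 ± 0.10 for DOK7 (edgeR adjusted p = 0.0804) and -0.66 ± 0.17 for CHRNE (edgeR adjusted p = 0.127). These were the 2 members of 10 at an unadjusted p below 0.05 in the blocked fit, where 2555 genes (11.2%) were, and 0 of 10 passed adjustment beside 109 genes (0.476%). RAPSN (0.28 ± 0.20), AGRN (-0.38 ± 0.35) and MUSK (-0.33 ± 0.32) did not pass the test on the same scale in either fit, and CHRNG differed by 0.00 ± 0.46.

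Other genes of the junction were read from lists of known roles. Of 12 genes of agrin and MuSK signalling, 16 of the synaptic matrix and scaffold, 7 of neuregulin signalling and its promoter factors, 5 glycosylation genes of congenital myasthenia and 11 tested genes that respond to denervation or activity, 0 passed an adjusted p of 0.05 by edgeR in any of the 4 comparisons. The median log2 fold change for diet in round muscle was -0.04, 0.20, 0.13, -0.10 and -0.22 in that order, and in sirloin -0.12, -0.03, -0.09, -0.15 and -0.23. Over all genes tested the medians were 0.02 and 0.03. COLQ, ERBB2 and RUNX1 in round muscle and PAK1 in sirloin had an unadjusted p below 0.05.

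COLQ encodes the collagen tail that anchors acetylcholinesterase in the synaptic cleft. In round muscle it had 0.448, 0.383, 0.0734 and 0.0901 TPM in control and 1.55, 1.47, 0.315 and 0.295 TPM in treated calves, and control replicates 1 and 2 lay above treated replicates 3 and 4. Its log2 fold change was 1.69 ± 0.72 (SE, edgeR adjusted p = 0.864), from 7 to 187 counts per library. ERBB2, a subunit of the neuregulin receptor, gave 0.61 ± 0.27 (SE, edgeR adjusted p = 0.864), with 13.8 ± 5.01 TPM in control and 22.4 ± 4.97 TPM in treated calves (SD, n = 4).

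RUNX1, a transcription factor induced by loss of the nerve that the study itself named from these samples, had 6.78, 3.59, 3.90 and 2.62 TPM in round muscle of control and 1.16, 0.296, 0.182 and 0.227 TPM in that of treated calves. The groups did not overlap, as for 1.82% of genes, and the log2 fold change was -3.23 ± 0.62 (SE, edgeR adjusted p = 0.361). In sirloin PAK1, a kinase of the clustering pathway, had 3.19 ± 1.40 TPM in control and 1.84 ± 0.61 TPM in treated calves (SD, n = 4), a log2 fold change of -0.97 ± 0.42 (SE, edgeR adjusted p = 0.876). The neuregulin gene NRG1 had at most 6 counts in a library and was at 0 in 13 of 16. The 11 nicotinic subunits of other tissues summed to 0.185 to 2.41 TPM, with 6 of them at 0 in all 16 libraries and 0 of the 5 tested ones past an adjusted p of 0.05 by edgeR.

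Smooth muscle markers summed to 77.0 to 159 TPM in round muscle of control and 40.1 to 100 TPM in that of treated calves, ranges that overlap, and 0 of 4 passed adjustment by edgeR for diet. CNN1, calponin of smooth muscle, had 46.6 ± 2.85 and 14.6 ± 5.48 TPM (SD, n = 4; log2 fold change -1.76 ± 0.29 SE, edgeR adjusted p = 0.196). TNMD, a tendon marker, gave -7.92 ± 1.77 (edgeR adjusted p = 0.864), and MYH7 gave 1.15 ± 0.51 (edgeR adjusted p = 0.864). The part of these cells in the values of the junction genes was not tested. With DESeq2, the study itself listed RUNX1, CNN1 and TNMD as downregulated in round muscle of treated calves at an adjusted p below 0.05. It also reported lower CNN1 there by qPCR.

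Between the muscles, HDAC4, a repressor that accumulates in denervated muscle, gave 1.13 ± 0.37 on the log2 scale for sirloin minus round (SE, edgeR adjusted p = 0.645). FBXO32, the ubiquitin ligase of muscle wasting, gave 1.22 ± 0.57 (edgeR adjusted p = 0.777). PDZRN3, a ligase that acts on MuSK, gave 0.64 ± 0.30 (edgeR adjusted p = 0.783), and ERBB2 gave 0.42 ± 0.16 (edgeR adjusted p = 0.696). The matrix genes NID2 (-0.50 ± 0.18) and LAMA5 (-0.47 ± 0.19), which encode nidogen and laminin chains of the basal lamina, lay lower in sirloin, with adjusted p of 0.695 and 0.743 by edgeR. Of the other list genes with the smallest p in this comparison, ABL1 (0.27 ± 0.28), CTTN (-0.11 ± 0.15), DTNA (-0.22 ± 0.16), GABPB1 (-0.25 ± 0.18), GMPPB (-0.45 ± 0.31), ALG14 (-0.42 ± 0.30) and ALG2 (0.11 ± 0.17) had an adjusted p of at least 0.931 by edgeR. CHRNA5, CHRNA6 and CHRNA10 reached at most 0.42 TPM in any library, with adjusted p of at least 0.811 by edgeR.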

How the data were processed

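The authors deposited raw read counts per gene and normalized values for 16 libraries. The deposited normalized values sum to nearly the same total in each library and were used as the authors' TPM. Their tables of fold changes and p-values were not used, beyond citing the study's calls for RUNX1, CNN1 and TNMD. The submitters' processing notes list FastQC, Trimmomatic, STAR, featureCounts, DESeq2 and ARS-UCD1.2, whereas the paper's methods name HISAT2, Bowtie2 and StringTie. The labels state poly(A) selection and the methods a stranded total RNA kit. TPM of control replicate 2 tracked counts less closely (r = 0.924 and 0.929) than those of other libraries, but the TPM per count of a member varied at most 1.20-fold. RefSeq names matched 30762 of 34109 IDs (90.2%).

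Counts were tested with edgeR 4.0.16 (TMM, glmQLFit, glmQLFTest, two-sided, genes with at least 1 count) in R 4.3.3, per muscle for diet and over 4 groups otherwise. SE was the absolute log2 fold change divided by the square root of F. Alternatives were DESeq2 1.42.0, limma-voom 3.58.1, RLE factors, filterByExpr, a replicate block and each calf left out. Ratios and relations used exact permutations (scipy 1.17.1). The fits without a block by edgeR, DESeq2 and limma-voom were checked on simulated counts, which were drawn without a link between muscles of a calf. Deviations from group means correlated at 0.311 to 0.765 between round and sirloin libraries that share a diet and replicate number. These were taken as the same animal. Between round and sirloin libraries of a diet with different numbers the correlation was at most 0.146. Equal numbers in both diets (-0.28 to 0.29) did not pair calves.

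All members were named, as were list genes with an unadjusted p below 0.05 for diet, the 3 genes per list with the smallest adjusted p between muscles, markers at or near 0, and the 3 genes nearest to CHRNG and to CHRNE. Members and lists were chosen with earlier results of these data known. One list gene covered by this rule is not reported here.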

Additional observations from a re-analysis of the deposited data

Results flagged for a closer look

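Within-group values of the 10 members and the ratio were screened for a library far from the other 3 of its group, by the gap to its nearest neighbour divided by the range of the group on the log2 scale. Of 44 groups, 4 exceeded Dixon's critical value for 4 samples, where 2.2 are expected by chance at 1 in 20. In sirloin of treated calves, CHRNA1 of treated replicate 3 lay low, with a gap of 0.941 of the range. In round muscle of control calves, CHRND of control replicate 1 lay high (0.861), and CHRNE of control replicate 4 lay low (0.830). RAPSN of control replicate 3 lay high in sirloin of control calves (0.920). CHRND of control replicate 1 was the highest of all 16 libraries at 30.5 TPM, and CHRNE of control replicate 4 was the lowest at 1.20 TPM.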

How the results depend on the processing

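No member passed an adjusted p of 0.05 in any comparison under DESeq2, limma-voom, RLE factors, filterByExpr, the replicate block or with a calf left out, the lowest adjusted p being 0.0804 for DOK7 between muscles with calf as the block. At an unadjusted p of 0.05 the calf block moved the count of members from 0 to 2 both between the muscles and for the interaction. Leaving out single calves gave 0 to 2 members for diet in round muscle, with 2 (CHRNA1 and CHRND) without control replicate 1 and 1 (CHRNA1) without treated replicate 3. It gave 0 to 1 between the muscles and 0 to 1 for the interaction, in both cases 1 without control replicate 1. The log2 ratio of CHRNG to CHRNE stayed on the same side of the threshold in all 4 comparisons under read counts, a pseudocount of 1 TPM and no log, and between the muscles also with sign flips within calves as the replicate block (exact p = 0.102) and each calf left out. Sign flips over the 4 replicate numbers for diet, and 3 against 4 calves, are too few to pass 0.05 and say nothing of stability. Its values with a calf left out ranged from -1.05 to 0.85 for diet in round muscle, 0.13 to 1.58 in sirloin, 0.44 to 0.88 between muscles and 0.72 to 1.46 for the difference between diets. The replicate block changed no other call. With 4 calves per group and within-group standard deviations near 1 on the log2 scale for CHRNE, CHRNG and CHRND, a change of the size of their standard errors was not detectable.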
